A study of Homo sapiens with 6 samples.

Results

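The genes of translesion synthesis were examined in BaF3-T315I cells exposed to I13, an HDAC inhibitor. They are Polk, Polh, Poli, Rev1, Rev3l, Mad2l2 and Rad18, 7 of the 22413 mouse genes in the table, and all 7 were found by symbol. The family was chosen from the I13 against control values themselves, through Polk, which the study named among the genes of its enriched pathway. Hence, what follows on that contrast is a description of these genes. No p-value is given for any of them in it, only counts below a limit beside the share of all genes. The mRNA of 6 samples was sequenced, 3 of control cells and 3 of cells kept for 48 h with I13 (1.1 µM). All 6 came from the same murine line, BaF3 stably transfected with T315I-mutated BCR-ABL, so there was no parental line, no line with wild-type BCR-ABL and no second compound among them. Neither the vehicle nor the culture time of the control is given in the labels, and they do not say whether the 3 samples of a group were separate cultures, so p-values measure only the spread between these samples.

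Translesion synthesis lets replication pass a damaged base that the replicative polymerases cannot copy. Rad18, a ubiquitin ligase, works with the conjugating enzymes Ube2a and Ube2b to mark the sliding clamp PCNA, and the marked clamp takes up Y-family polymerases, which insert a base opposite the lesion. Rev1 serves as a scaffold between these inserters and polymerase zeta, which extends the new end and is built on the catalytic subunit Rev3l and its partner Mad2l2. Bypass keeps a fork moving at the price of fidelity, and in B cells some of these polymerases also take part in somatic hypermutation.

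The values are FPKM, the fragments on a gene per kilobase of its length and relative to all mapped fragments of the library. Library totals recovered from the values ran from 16762119 to 17722950 fragments, so depth differed little between the groups. Parental BaF3 is a pro-B line that grows on IL-3, whereas the medium the paper describes for its transfected cells lists no IL-3. Of the markers fixed for BaF3, the IL-3 receptor gene Il3ra ran from 9.07 to 18.2 FPKM. The B cell receptor component Cd79a ran from 14.1 to 27.5 FPKM. The receptor chain genes Csf2rb and Csf2rb2 are close paralogs that may share fragments. Csf2rb was 286, 239 and 463 FPKM in the control replicates and 448, 477 and 838 FPKM in the I13 replicates. Csf2rb2 was 253, 196 and 408 FPKM and 449, 471 and 795 FPKM. Il3ra, Csf2rb and Csf2rb2 were each higher in every I13 sample than in the control of its number, as were 24.1% of all genes tested. Cd79a was lower in I13 replicate 1 than in its control. The pro-B genes Pax5, Ebf1, Vpreb1, Igll1 and Vpreb3 were at most 0.396 FPKM in any sample. The line thus showed its IL-3 receptor, with these B lineage factors at or near 0.

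Per length, Polh was the most abundant of the 7 genes and Polk the least. Over the 6 samples, the mean was 35.8 ± 3.73 FPKM for Polh, 14.0 ± 1.24 for Mad2l2, 7.66 ± 1.74 for Rev1, 5.97 ± 0.586 for Rad18, 5.16 ± 0.872 for Poli, 4.63 ± 1.07 for Rev3l and 3.28 ± 0.7 for Polk (SD, n = 6 each). Polh alone made up 46.3% ± 3.13 of the summed FPKM of the 7 genes in the control and 47.2% ± 1.5 after I13 (SD, n = 3 each), while Polk made up 3.71% ± 0.242 and 4.8% ± 0.4. Among the 12163 genes tested, Polh stood at the 86.8th percentile of level and Polk at the 29.4th percentile.

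Neighbours in this order were compared within each sample, on log2(FPKM + 0.1), by an exact two-sided sign-flip permutation test over the 6 samples, with p adjusted over the 6 pairs of neighbours by the Benjamini-Hochberg method. Polh exceeded Mad2l2 in 6 of 6 samples, by a log2 difference of 1.35 ± 0.258 (SD), Mad2l2 exceeded Rev1 in 6 of 6 by 0.89 ± 0.457, and Rev3l exceeded Polk in 6 of 6 by 0.48 ± 0.165. Each of these differences had an exact p of 0.03125, the smallest that 6 samples allow, and an adjusted p of 0.0625, so none passed the threshold of 0.05. Rev1 lay above Rad18 in 5 of 6 samples, and Rad18 above Poli and Poli above Rev3l in 4 of 6 each, with an adjusted p of 0.125 for each of these 3 pairs by the exact permutation test. The order from Rev1 to Rev3l thus varied between samples, and not evenly over the groups. In every control, Rad18 lay above Poli and Poli above Rev3l, so all reversals of these pairs fell in I13 samples. Rev1 lay below Rad18 in control replicate 1. The test pooled both groups, and a difference in order between them was not tested. The test treats the 6 samples as independent, whereas same-numbered samples were also taken as pairs, so these p-values may be too small, and flips of 3 pairs as units would allow no p below 0.25. The order was also taken from the means of these same 6 samples, which largely set the direction of each difference. The p-values are therefore no independent test of the order.

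**Figure D1:**
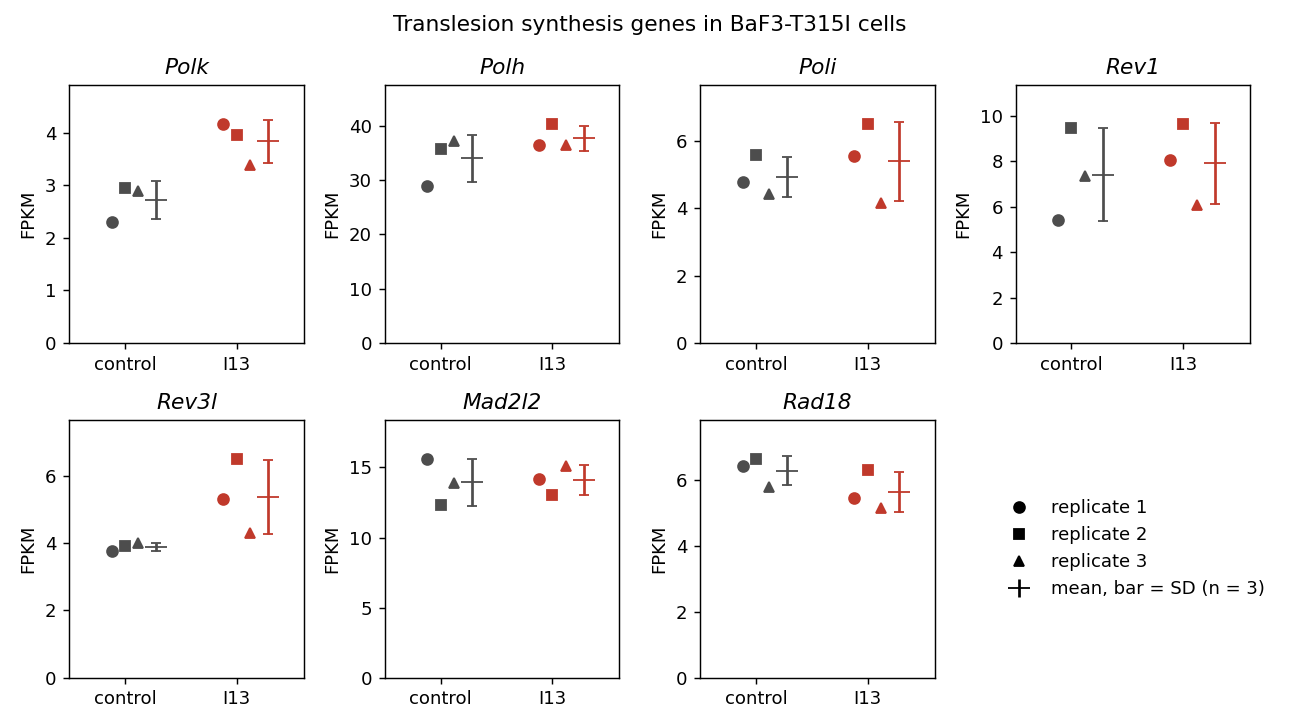
FPKM of each translesion synthesis gene (vertical axes, from 0) in the 3 control and 3 I13 samples, with a symbol for each replicate number and the mean with its SD beside the points. The I13 points of Polk and Rev3l all lie above their control points, while those of the other 5 genes overlap.

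Rad18, which marks the clamp at the start of the pathway, was the only one of the 7 with a lower mean after I13. It was 6.43, 6.65 and 5.81 FPKM in control replicates 1, 2 and 3 and 5.48, 6.31 and 5.15 FPKM in I13 replicates 1, 2 and 3. I13 replicate 2 lay within the range of the controls, so the groups overlap, although each I13 sample was below the control of its own number. The means were 6.29 ± 0.439 and 5.65 ± 0.595 FPKM (SD, n = 3 each), or a log2 fold change of -0.16 (SE, the standard error, 0.118). In bulk RNA, a change in the share of cells that express a gene and a change of its level in each cell cannot be told apart, which holds for all values here.

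Polk encodes polymerase kappa, a Y-family enzyme known for extension and for bypass of bulky adducts in the minor groove. It was 2.31, 2.95 and 2.9 FPKM in control replicates 1, 2 and 3 and 4.16, 3.96 and 3.38 FPKM in the I13 replicates. Every I13 value was above every control value, with control replicate 1 the lowest and I13 replicate 1 the highest of the 6. The means were 2.72 ± 0.359 and 3.84 ± 0.403 FPKM (SD, n = 3 each), a ratio of 1.41 and a log2 fold change of 0.48 (SE 0.151), below the limit of 0.58 that a call required. In fragments, these values rested on 227, 289 and 284 in the controls and 407, 369 and 329 after I13. The coefficient of variation was 13.2% between controls and 10.5% between I13 samples, against 6.12% and 5.21% from counting alone. The difference was uneven between same-numbered samples, with log2 differences of 0.82, 0.41 and 0.21 in the pairs of replicates 1, 2 and 3. At the same limits, by a test its text does not name, the study listed Polk among the genes of its enriched pathway. With limma, Polk was not called here.

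Polh encodes polymerase eta, which copies past the pyrimidine dimers that ultraviolet light makes. It was 29.0, 35.7 and 37.3 FPKM in the control replicates and 36.4, 40.3 and 36.4 FPKM in the I13 replicates. The groups overlap, since control replicate 3 lay above I13 replicates 1 and 3, and the lowest value was that of control replicate 1. The means were 34.0 ± 4.4 and 37.7 ± 2.26 FPKM (SD, n = 3 each), or a log2 fold change of 0.16 (SE 0.117), which was 0.046 without control replicate 1. The ratio of Polh to Polk was 12.5 ± 0.381 in the control and 9.89 ± 1.04 after I13 (SD, n = 3 each). Since the family was chosen through Polk, a lower ratio over Polk largely restates the difference in Polk. The ratios of Rev1 and Poli to Polk were also lower after I13, at 2.7 and 2.05 for Rev1 and 1.83 and 1.4 for Poli.

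Poli encodes polymerase iota, the closest relative of polymerase eta. It was 4.79, 5.59 and 4.41 FPKM in the control replicates and 5.54, 6.49 and 4.16 FPKM in the I13 replicates. Replicate 2 was the highest and replicate 3 the lowest in both groups, and I13 replicate 3 was the lowest of all 6. The log2 fold change was 0.11 (SE 0.182) and turned to -0.032 without I13 replicate 2.

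Rev1, a deoxycytidyl transferase as well as the scaffold of the pathway, varied more than any other of the 7 genes in both groups. It was 5.4, 9.47 and 7.37 FPKM in the control replicates and 8.04, 9.63 and 6.07 FPKM in the I13 replicates, coefficients of variation of 27.5% and 22.6%. Replicate 2 was again the highest in both groups, and the ranges overlap almost fully. The log2 fold change of 0.10 (SE 0.24) covered pair differences of 0.57, 0.02 and -0.28, and it turned to -0.102 without control replicate 1.

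Rev3l encodes the catalytic subunit of polymerase zeta and had the longest gene model of the 7, 13293 bases as recovered from the values. It was 3.76, 3.91 and 4.0 FPKM in the control replicates and 5.31, 6.49 and 4.29 FPKM in the I13 replicates. As for Polk, every I13 value was above every control value, yet I13 replicate 3 exceeded the highest control by little. The means were 3.89 ± 0.121 and 5.36 ± 1.1 FPKM (SD, n = 3 each), a ratio of 1.38 and a log2 fold change of 0.43 (SE 0.16). Its spread was unequal between groups, with a coefficient of variation of 3.1% between controls, close to the 3.31% from counting alone, and of 20.5% between I13 samples. The log2 fold change was 0.288 without I13 replicate 2 and 0.58 without I13 replicate 3, and 0.375 after removal of the trend of each library with gene length. The pair differences were 0.48, 0.72 and 0.10.

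Mad2l2, also known as Rev7, bridges Rev3l to Rev1 and serves outside bypass in the shieldin complex at broken ends. It was 15.6, 12.3 and 13.9 FPKM in the control replicates and 14.2, 13 and 15.1 FPKM in the I13 replicates. The I13 values lay within the range of the controls, with replicate 2 the lowest in both groups. Its log2 fold change of 0.02 (SE 0.118) was the smallest in size of the 7 and ran from -0.066 to 0.106 when 1 sample was left out. Relative to Rev3l, its polymerase partner, Mad2l2 was at 4.16, 3.15 and 3.46 times the FPKM in the controls and at 2.67, 2.01 and 3.51 times in the I13 samples, where replicate 3 lay within the control range.

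**Figure D2:**
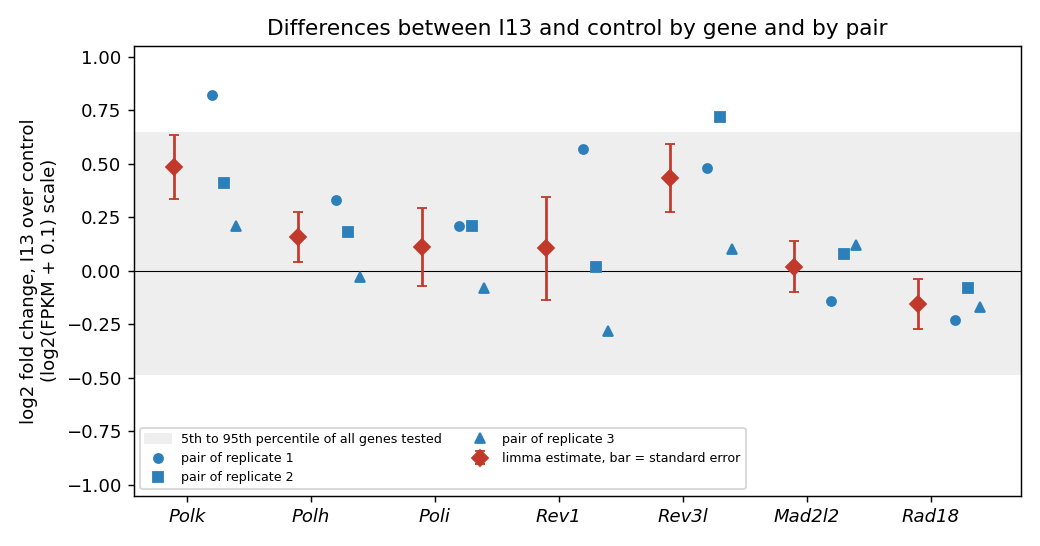
Log2 fold change of I13 over control for each translesion synthesis gene on the log2(FPKM + 0.1) scale (vertical axis), as the limma estimate with its standard error (diamonds) and in each pair of same-numbered samples (other symbols). The grey band spans the 5th to 95th percentile of all 12163 genes tested, and it holds the estimate of all 7 genes.

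Because the contrast chose the family, nothing is read from its median or from any count in this paragraph. The value over all genes tested stands beside each. Over the family, 6 of the 7 log2 fold changes were above 0, with a median of 0.11, against a median of -0.005 and 49.2% above 0 over all genes tested. Of these 6, those of Poli, Rev1 and Mad2l2 were smaller than their SE. The values of the groups did not overlap in 2 of the 7, Polk and Rev3l, against 25.2% of all genes. The same 2 were higher after I13 in all 3 same-numbered pairs, against 24.1%, and 1, Rad18, was lower in all 3, against 27.5%. With all 6 samples, none of the 7 reached an absolute log2 fold change of 0.58, which 9.41% of all genes did. With limma, at an adjusted p below 0.05 and that fold change, 0 of the 7 were called against 0.0411% of all genes, and 2 had an unadjusted p below 0.05 against 18.6%. With the replicate number as a block, 0 were called against 1.89% of all genes, and 0 had an adjusted p below 0.05 against 2.99%. With voom on the recovered fragments, 0 were called without the block, against 0.0493% of all genes, and 0 with it, against 4.14%. In that last fit, 1 of the 7 passed the limit on the adjusted p alone, against 12.4% of all genes, and none did in any other setting.

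The share of the variation between replicate numbers differed widely among the 7 genes, and the share between conditions restates the contrast that chose the family. Of the sum of squares of log2(FPKM + 0.1) over the 6 samples, 74.7% lay between control and I13 for Polk and 61.6% for Rev3l. For Poli, Mad2l2, Rev1 and Rad18, most of it lay between the replicate numbers instead, with 83.4%, 75.1%, 64.3% and 57.6%. Rad18 also had 36.7% between conditions. There are more replicate numbers than conditions, so a larger share falls between replicate numbers even without any effect. Polh had 29.0% between conditions and 45.2% between replicate numbers, close to the 27.7% and 44.2% over all genes tested. Poli, Rev1 and Rad18 shared their highest sample in both groups, replicate 2, which was the lowest in both for Mad2l2.

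**Figure D3:**
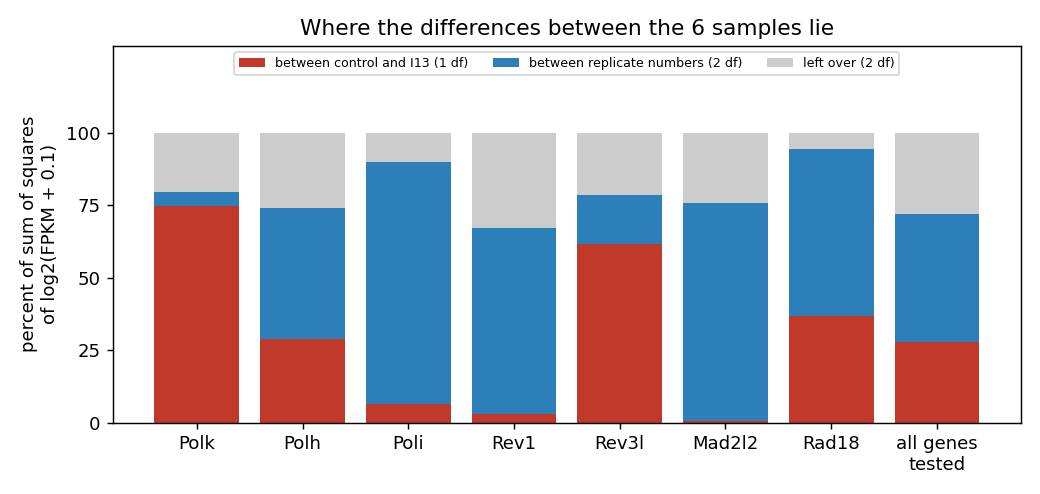
Percent of the sum of squares of log2(FPKM + 0.1) over the 6 samples (vertical axis) that lay between control and I13, between the replicate numbers and in neither, for each translesion synthesis gene and for all genes tested. The part between conditions is above 60% for Polk and Rev3l and below 10% for Poli, Rev1 and Mad2l2.

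To place the family in its pathway, 5 lists of neighbouring genes were tested in the same fits. Of their 65 genes, 62 were found by symbol and 60 of these passed the filter on level. After I13, 33 of these 60 were higher and 27 lower, with a median log2 fold change of 0.03. With limma, 0 of the 60 were called or had an adjusted p below 0.05, while 5 had an unadjusted p below 0.05, against 18.6% of all genes, and 8 had groups that did not overlap, against 25.2% of all genes. As shares of the 60, both lay below those over all genes. With the block 0 were called and 1 had an adjusted p below 0.05, against 2.99% of all genes. With voom on the recovered fragments 0 were called with or without the block, and with it 3, namely Fzr1, Pold1 and Rpa3, had an adjusted p below 0.05, against 12.4% of all genes. At the limits of the study, none of the 5 lists thus held a called gene in these fits. Of all genes tested, limma called 0.0411%, and 1.89% with the block. The shares with voom were 0.0493%, and 4.14% with the block. The fits without the block called so few genes that 0 of 60 says little there. The shares of 1.89% and 4.14% with the block are also small for 60 genes, so 0 of 60 says little in those fits either.

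The list closest to Rad18 holds the genes that add, read or remove ubiquitin on PCNA, with PCNA itself and the single-strand binding subunits. All 20 were tested, of which 14 were higher and 6 lower, with a median of 0.046 on the log2 scale. Pcna was at 170 ± 23.4 FPKM in the control and 173 ± 8.43 FPKM after I13 (SD, n = 3 each), far above any polymerase of the bypass family. The gene with the highest log2 fold change was Ube2a, a partner of Rad18, at 0.35 (SE 0.222, limma adjusted p = 0.428). Its paralog Ube2b, the more abundant of both, was at 35.4 ± 1.71 and 35.8 ± 1.9 FPKM, a log2 fold change of 0.016. The lowest was Rpa3, a subunit of the single-strand binding complex, at 52.5 ± 7.77 and 40.2 ± 3.98 FPKM, a log2 fold change of -0.38 (SE 0.131, limma adjusted p = 0.202, blocked 0.0679, and 0.033 by voom with the block).

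Of the 12 replicative polymerase genes, all were tested, and 8 were lower and 4 higher after I13, with a median log2 fold change of -0.04. Pold1, the catalytic subunit of polymerase delta, had the lowest, at 29.9, 39.0 and 36.0 FPKM in the control replicates and 25, 28.9 and 26.0 FPKM in the I13 replicates. These groups do not overlap, and the log2 fold change was -0.38 (SE 0.122, limma adjusted p = 0.177, blocked 0.0598, and 0.0193 by voom with the block). Pola1, the catalytic subunit of polymerase alpha, had the highest, 0.34 (SE 0.21, limma adjusted p = 0.419). Pold2 and Pold3, named here for their role because polymerase delta shares them with polymerase zeta, were at 53.0 ± 4.08 and 21.6 ± 2.49 FPKM in the control (SD, n = 3 each), above Rev3l and Mad2l2. After I13 they were at 44.6 ± 3.87 and 20.3 ± 1.96 FPKM, log2 fold changes of -0.25 (limma adjusted p = 0.252) and -0.087 (limma adjusted p = 0.737).

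Among the other non-replicative polymerases, 7 of the 9 listed were tested, 3 higher and 4 lower, with a median log2 fold change of -0.136. The highest was Polq, the polymerase of end joining at microhomologies, at 0.27 (SE 0.211, limma adjusted p = 0.528). The lowest was Polg2, the accessory subunit of the mitochondrial polymerase, at -0.32 (SE 0.305, limma adjusted p = 0.6). Poln lay below the filter, at 0.313 FPKM in the control and 0.182 FPKM after I13, and Dntt was not found by symbol.

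Mad2l2 works with other proteins beyond bypass, and of the 10 genes listed for these partners 8 were tested, 5 higher and 3 lower, with a median log2 fold change of 0.053. Shld1 and Shld3 were not found by symbol. Fzr1, which encodes the activator Cdh1 of the anaphase-promoting complex, was the gene of the 5 lists with the smallest adjusted p. It was 19.0, 18.3 and 20.2 FPKM in the control replicates and 13.9, 12.7 and 14.2 FPKM in the I13 replicates. The groups are well apart, and the log2 fold change was -0.49 (SE 0.092, limma adjusted p = 0.104). With the replicate block its adjusted p was 0.0447, and 0.00836 by voom with the block, but the fold change stayed short of 0.58, and with any 1 pair left out of the blocked fit, a setting chosen after seeing the data, the adjusted p was between 0.0758 and 0.305. Rif1, which acts upstream of shieldin, had the highest log2 fold change, 0.38 (SE 0.177, limma adjusted p = 0.297).

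In the ATR checkpoint list, the signalling that senses stalled forks, 13 of 14 genes were tested, with 7 higher, 6 lower and a median log2 fold change of 0.033. The extremes were the mediator Clspn at 0.21 (limma adjusted p = 0.595) and the fork protein Timeless at -0.27 (limma adjusted p = 0.291). In all 13 genes tested the values of the groups overlapped, whereas 25.2% of all genes had groups that did not overlap.

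**Figure D4:**
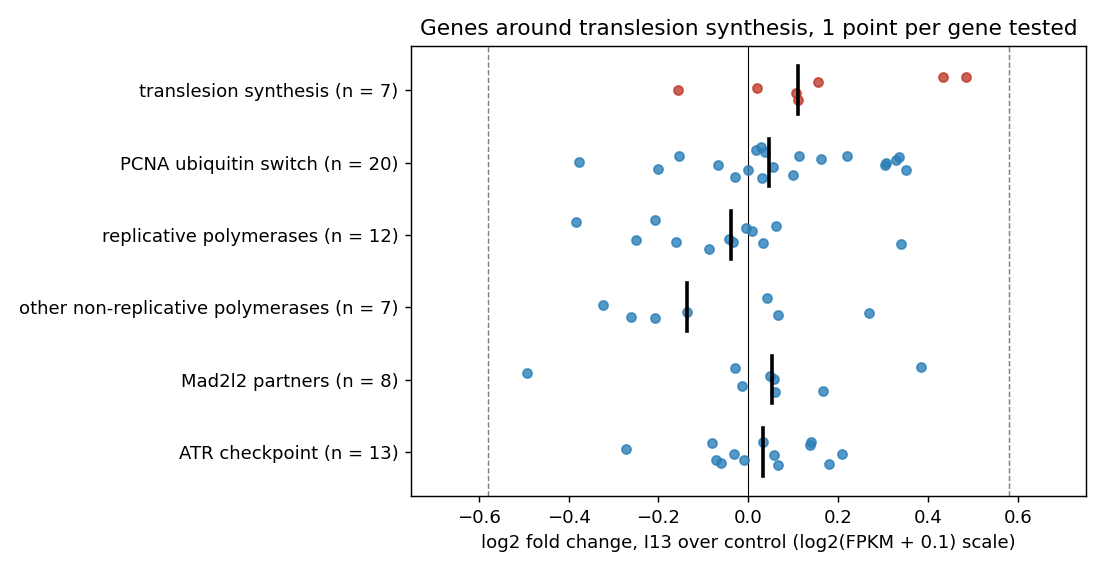
Log2 fold change of I13 over control on the log2(FPKM + 0.1) scale (horizontal axis) for the translesion synthesis genes and the 5 lists around them, with 1 point per gene tested, a black bar at each median and dashed lines at a log2 fold change of 0.58 in either direction. All points lie between the dashed lines.

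The genes whose pattern was most like that of Polk were found by the root mean square difference of log2(FPKM + 0.1), centred on the mean of each gene, over the 6 samples. The closest were Zfp68, Orc4 and Zfp984, at 0.049, 0.051 and 0.057, against a median of 0.344 over all genes tested. Orc4, a subunit of the origin recognition complex, was at 4.33, 5.38 and 4.86 FPKM in the control replicates and 7.16, 7.17 and 6.0 FPKM in the I13 replicates. Within the family, Rev3l was the closest to Polk at 0.151 and Rad18 the farthest at 0.357. Since likeness over 6 samples in 2 conditions rests largely on the difference between them, it describes the libraries only.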

How the data were processed

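mRNA of BaF3-T315I cells was sequenced from stranded libraries, and the values deposited by the authors are FPKM, relative to gene length and to the mapped fragments of each library. The submitters' processing notes name Trimmomatic, HISAT2, Cufflinks and HTSeq without versions, and the build hg38, whereas every gene identifier in the table is a mouse one and the paper calls the cells murine; no reference sequence or coordinate was used. Groups and replicate numbers came from the labels. The members and gene lists were chosen with earlier results of these data known.

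The FPKM of all 22413 genes was turned back into whole fragments and lengths (tolerance 0.01 fragments plus 1e-06 of the value). limma 3.58.1 in R 4.3.3, with its trended eBayes, was fitted to log2(FPKM + 0.1) of the 12163 genes whose mean FPKM reached 0.5, and p was adjusted by the Benjamini-Hochberg method. Calls needed both an adjusted p under 0.05 and a log2 fold change of 0.58 or more in size, as in the paper, whose text names no test. The log2 fold change understates that of genes with low FPKM. Genes named from the lists have the highest or lowest log2 fold change of their list or an adjusted p below 0.05 in the fit with or without the block, and the 3 genes most like Polk are named. Deviations of same-numbered samples from their group means correlated across genes at 0.15, 0.3 and 0.22. Those of differently numbered samples did so at -0.26 to 0.05. In the blocked fit, same-numbered samples were therefore treated as pairs. The labels number the samples but do not call them paired, so results with the block rest on this reading. The alternatives were other pseudocounts, filters, scalings and eBayes settings, a loess correction for gene length, voom on the recovered fragments, the block and leaving out each sample. The recovery and the fits were tested on simulated data. Figures used matplotlib 3.10.9.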

Additional observations from a re-analysis of the deposited data

How the results depend on the processing

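Same-numbered samples were taken as pairs, and the fit with the replicate block called 166 elevated and 64 decreased genes, against 4 and 1 without it, while no call changed for a translesion synthesis gene or in the 5 lists. With the block and a length correction these counts were 174 and 54, and with the block and voom 375 and 128. Without both samples of replicate 1, chosen after seeing the data, the blocked fit gave 78 and 5, and without those of replicate 2 or of replicate 3 it gave 0 and 0. A pseudocount of 0.01, median-ratio scaling, quantile normalization and the length correction each gave 2 and 0, and no filter or eBayes without a trend gave 3 decreased genes. With 1 sample left out, both counts ran from 0 to 0, although between 1478 and 2482 genes had an unadjusted p below 0.05. The fits with samples left out also had fewer samples, and the cause of these differences in counts was not tested. With all 6 samples, the log2 fold change of Polk ran from 0.38 to 0.512 over the planned settings and that of Rev3l from 0.365 to 0.461, and 6 of the 7 genes were above 0 in each. With 1 sample left out, Polk ran from 0.374 to 0.569 and Rev3l from 0.288 to 0.58. In the blocked limma fit, in settings chosen after seeing the data, Polk was 0.314, 0.519 and 0.618 without both samples of replicate 1, 2 or 3, and Rev3l was 0.407, 0.291 and 0.6, so both passed 0.58 without replicate 3, where 0 genes were called and 3160 had an unadjusted p below 0.05. Poli, Rev1 and Mad2l2 each turned below 0 in at least 1 of these fits, and Polk, Polh, Rev3l and Rad18 kept their sign. With 5 samples, the sign-flip test of levels allows no p below 0.0625, and a pseudocount of 0.01 or 1 changed no call.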
